A study of Arabidopsis thaliana with 4 samples.

Results

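A set of 34 cDNA clones stood highest after 24 h of thrips feeding in Arabidopsis thaliana, out of 1182 clones on an array of stress-related genes. The 34 were chosen by their measured values and not by function. Log2 ratios of fed over untreated plants in the authors' value table were first centred on the median clone of each array. A clone belongs to the set when its centred ratio at 24 h was at least 0.5 above the highest of its centred ratios at 2, 5 and 10 h. Of the 1182 clones, 607 had a value at all 4 times, and 42 of these (6.92%) passed the margin. From the 42, 4 clones with all values at least 1, 1 clone with all values at most -0.8, and the genes THI2.1, PYK10 and APL3 were set aside, which leaves 34. Because the 24 h values selected the clones, that they are high at 24 h is a description and not a finding, and no test is given for it.

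The study exposed soil-grown, wild-type Columbia (Col-0) plants, 21 days old, to adult female western flower thrips, Frankliniella occidentalis. Each plant received 25 insects that had been starved for 3 h. Plants were sampled after 2, 5, 10 or 24 h of feeding, and untreated plants of the same age grown in parallel were the controls at each time. By the labels, the tissue was leaves, or the whole plant except the root, with 30 to 70 plants per sample and the replicate experiments pooled before RNA was extracted. The labels mention repeat hybridisations with the same RNA, and 1 two-colour array per time, 4 in all, was analysed here, with fed plants always in Cy5 (red) and untreated plants always in Cy3 (green). No dye swap was made, so a constant dye effect of a clone cannot be told apart from feeding.

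Thrips pierce single cells and suck out their contents, and leaves answer such feeding largely through the hormone jasmonate. Herbivory and wounding are known to draw in genes of detoxification, cell wall modification and secondary metabolism, and later to overlap with the programme by which ageing leaves export sugar and nitrogen. In a bulk leaf sample, fewer cells of a type and less RNA per cell cannot be told apart.

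Of the 34 clones, 12 carry a gene name and 22 do not. In this set the named genes fall into sugar and carbon metabolism (SFP1, PPDK and FDH), detoxification and secondary metabolism (CYP71B6, GT72B1 and AT1G60730), cell wall and apoplast (AT4G37520 and AT3G55430), regulation and calcium binding (AT5G61590 and AT2G46600), and proteins of less settled role (AT3G28940 and AT1G23130). Among all clones with 4 values, 179 have a name. The same margin, before any clone was set aside, was passed by 95 clones at 2 h, 12 at 5 h and 36 at 10 h.

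The values given here are log2 ratios of Cy5 over Cy3 recomputed from the scanner intensities of the same arrays. They are relative to the middle of all clones on each array, where a ratio of 0 means the same standing as the middle clone. Each member was printed in duplicate spots, and the SD given is that between these spots on 1 array, which measures technical error and not differences between plants. From 1388, 1652, 1426 and 1393 usable spots, ratios could be computed for 718, 857, 738 and 718 clones at 2, 5, 10 and 24 h. The median SD between spots was 0.08, 0.06, 0.12 and 0.11 for the members and 0.10, 0.11, 0.12 and 0.11 for all clones. Per the file headers and spot positions, the 2 h and 5 h arrays shared a slide and the 10 h and 24 h arrays shared another, with 5 h and 24 h at the same end.

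The median ratio of the 34 clones was -0.70 at 2 h, -0.57 at 5 h, -0.29 at 10 h and 0.48 at 24 h. The medians over all clones stayed near 0, at -0.12, -0.06, -0.05 and -0.02. Before 24 h most members were thus below the middle clone, with 8, 8 and 6 of 34 above 0 at 2, 5 and 10 h, against 28 of 34 at 24 h. The zero point bears on this: relative to the lambda DNA control spots the members' medians were -0.02, 1.14, 0.85 and 1.54, where the median clone lay at 0.65, 1.61, 1.21 and 1.14. Relative to the alpha tubulin spots they were 0.17, 0.83, 0.60 and 2.13, where the median clone lay between 0.84 and 1.73. A lower value before 24 h therefore means lower than the middle clone, and with either control as the zero the medians at 5 h and 10 h are above 0. All 34 were highest at 24 h in these ratios too, compared with 24.2% of all clones with 4 values, but these are the same hybridisations that selected them. The counts of members above 0 also follow in part from the selection, and the same counts over all clones are not given.

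A clone was counted as 2-fold higher or lower when its log2 ratio reached 1 in size, its usable spots all pointed the same way and its brighter dye was above background. By that count, 10 members were higher at 24 h, where 19.5% of all clones were higher. Earlier, 0 members were counted higher at 2 h (19.5% of all clones), 2 at 5 h (19% of all clones) and 1 at 10 h (21.8% of all clones). Lower in fed plants were 10 members at 2 h (12.5% of all clones), 9 at 5 h (15.8%), 9 at 10 h (22.4%) and 0 at 24 h (16%). The selection used these contrasts, so the shares are printed side by side and nothing is read from them. A high standing at 24 h therefore covers different courses: clones that were 2-fold higher at 24 h, clones that were 2-fold lower before and near the middle clone at 24 h, and clones within 2-fold at each time. The share of all clones that took each course is not given, so the courses sort the members and are not a trait of the set.

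**Figure D1:**
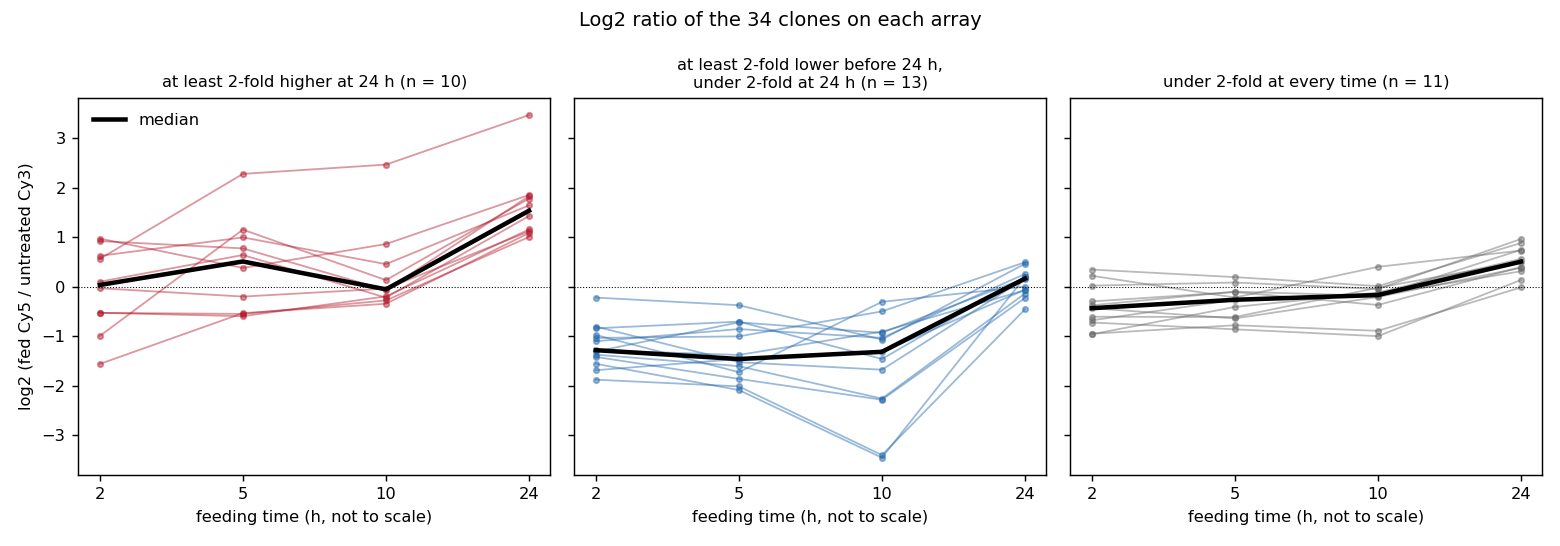
Log2 ratio of fed (Cy5) over untreated (Cy3) plants against feeding time in h for each of the 34 clones, in 3 panels by course relative to the middle clone, with each clone as a thin line and the panel median as a thick black line. The 10 clones that were at least 2-fold higher at 24 h had a median of 1.53 there, the 13 that were at least 2-fold lower before had a median of 0.16, and the 11 within 2-fold at each time had a median of 0.51.

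Among the sugar and carbon genes, SFP1 encodes a transporter of the sugar porter family whose transcript is known from ageing leaves. SFP1 stood at -0.53 at 2 h, -0.60 at 5 h, -0.20 at 10 h and 1.16 at 24 h, with spot SDs of 0.22, 0.10, 0.16 and 0.41. It was below the middle clone on the 3 earlier arrays and 2.23-fold higher in fed plants at 24 h. With loess fitted in each print block, the set of spots laid down by 1 pin, its ratios were -0.16, 0.21, 0.70 and 1.42. The sign of SFP1 at 5 h and 10 h thus depends on the processing.

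FDH encodes the mitochondrial formate dehydrogenase, which oxidises formate to carbon dioxide and is known to respond to many stresses. Its ratios were -0.53, -0.55, -0.28 and 1.00 at 2, 5, 10 and 24 h, with spot SDs of 0.06, 0.21, 0.07 and 0.09. The 24 h array thus stood 1.28 above the next highest, and the fed plants had 2.01 times the untreated level there. FDH lay at the edge of the 2-fold count, with a 24 h ratio of 0.99 under plain background subtraction and 0.62 with loess in each print block, both under it.

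PPDK encodes pyruvate orthophosphate dikinase, which makes phosphoenolpyruvate and is known from nitrogen export in ageing leaves. It stood at -0.81 at 2 h, -1.52 at 5 h, -1.68 at 10 h and 0.16 at 24 h, with spot SDs of 0.02, 0.05, 0.01 and 0.18. The fed plants were counted as lower at 5 h and 10 h. At 24 h the ratio was within its spot SD of the middle clone, so in these ratios PPDK belongs to the set through its low earlier values. With loess in each print block its ratios were -0.75, -1.36, -1.17 and 0.40, the last above that spot SD.

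FDH and PPDK also had dimmer untreated spots at 24 h. The net Cy3 signal of FDH was 9044, 6198, 7127 and 4707 at 2, 5, 10 and 24 h, and its net Cy5 signal was 7654, 8504, 11766 and 12640. For PPDK the net Cy3 signal was 4326, 3640, 3787 and 1876, and the net Cy5 signal was 2498, 1998, 1645 and 2480. Before normalization, the net Cy3 signal of both genes was thus lowest at 24 h, while net Cy5 at 24 h was the highest of the 4 arrays for FDH and close to its 2 h value for PPDK.

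Among the genes of detoxification and secondary metabolism, CYP71B6 encodes a cytochrome P450 that acts on indole-3-acetonitrile. Its ratios were -0.38, -0.10, -0.19 and 0.75 at 2, 5, 10 and 24 h, with spot SDs of 0.06, 0.01, 0.08 and 0.35. The fed plants were close to the middle clone until 10 h and 1.68-fold higher at 24 h. With loess fitted in each print block, the 24 h ratio of CYP71B6 was -0.10 and was no longer its highest.

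AT1G60730 encodes an enzyme of the aldo-keto reductase type. It stood at 0.02, 0.08, -0.05 and 0.96, with spot SDs of 0.15, 0.12, 0.25 and 0.01. The 3 earlier arrays lay within their spot SDs of the middle clone, and at 24 h the level was 1.95 times that of untreated plants.

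GT72B1 encodes a glucosyltransferase of family 1 that conjugates lignin precursors and chlorinated phenols. Its ratios were -0.68, -0.26, -0.17 and 0.31, with spot SDs of 0.20, 0.02, 0.37 and 0.05. The 2 h array was lowest and the 24 h array highest, with the 24 h spots 0.48 above the 10 h mean. It is among the clones nearest to the selection margin.

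**Figure D2:**
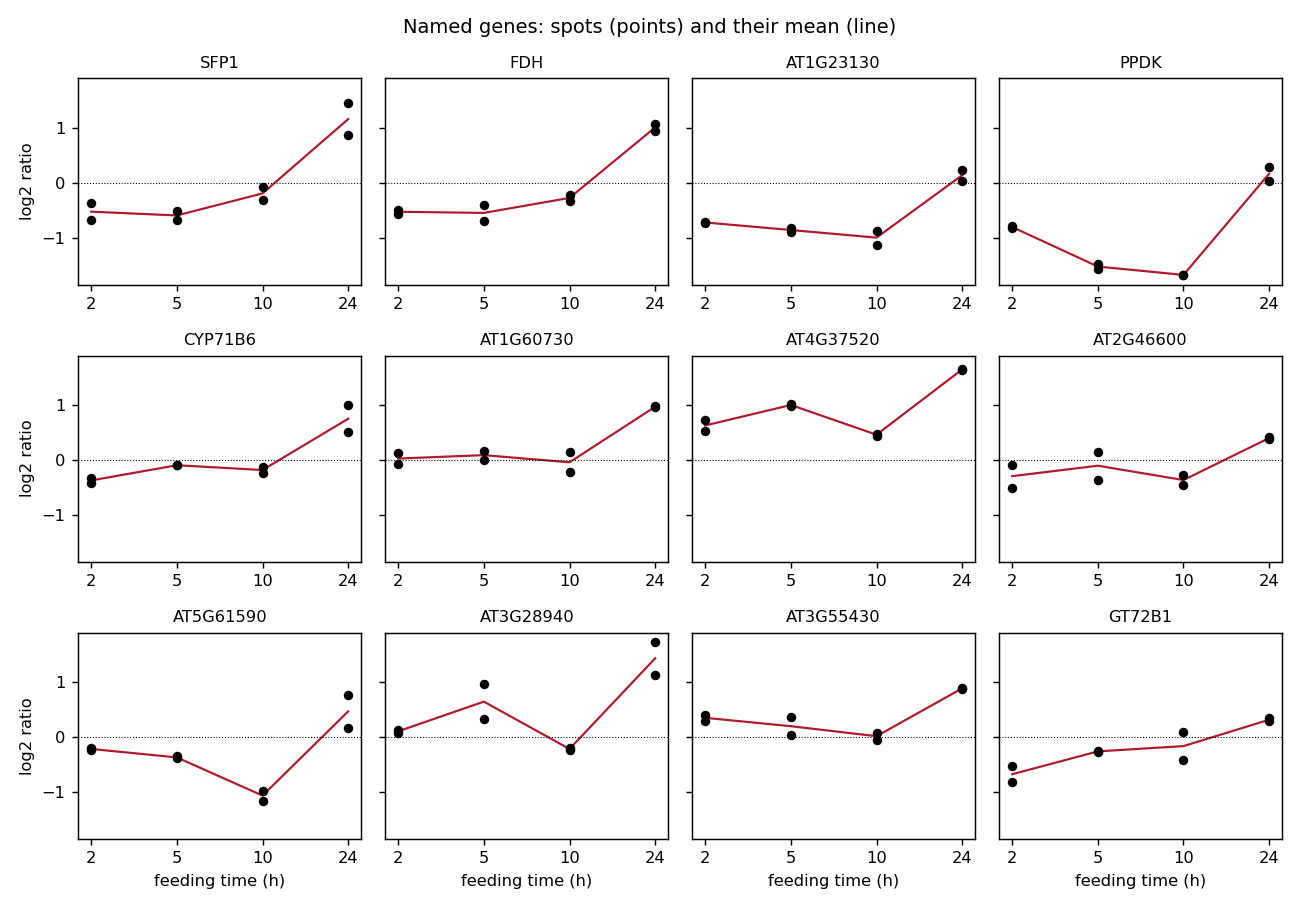
Log2 ratio of fed (Cy5) over untreated (Cy3) plants against feeding time in h for the 12 named genes, with each spot as a black point and the mean of the spots as a red line. The spots at 24 h lie above each spot of the other times for all 12, which follows largely from the selection. The height at 24 h runs from 0.14 for AT1G23130 to 1.64 for AT4G37520.

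AT4G37520 and AT3G55430 encode proteins that act on the cell wall. AT4G37520 is a class III peroxidase, a secreted type of enzyme that uses hydrogen peroxide, for example to cross-link lignin. It stood at 0.62, 1.00, 0.46 and 1.64 at 2, 5, 10 and 24 h, with spot SDs of 0.13, 0.02, 0.03 and 0.02. It was above the middle clone on all 4 arrays, just under the 2-fold count at 5 h and 3.12-fold higher at 24 h.

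AT3G55430 encodes a glycosyl hydrolase of family 17, the family of the beta-1,3-glucanases. Its ratios were 0.35, 0.19, 0.01 and 0.88, with spot SDs of 0.08, 0.23, 0.09 and 0.01. It too was at or above the middle clone on each array, and the 24 h value corresponds to a 1.84-fold higher level. Its spots were dim, with a net Cy3 signal between 262 and 350.

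AT5G61590 encodes an ethylene response factor type of transcription factor known as DEWAX, which represses genes of cuticular wax synthesis. It stood at -0.22, -0.37, -1.07 and 0.46, with spot SDs of 0.03, 0.03, 0.13 and 0.42. The fed plants were counted as lower at 10 h, and at 24 h the ratio was 0.46 with the spots far apart. With loess in each print block the 24 h ratio of AT5G61590 was -0.44, and with the mean in place of the median of the pixels it was -0.09, so its direction at 24 h depends on the processing.

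AT2G46600 encodes a small protein with EF hands, the calcium-binding fold. Its ratios were -0.30, -0.11, -0.37 and 0.39, with spot SDs of 0.30, 0.36, 0.13 and 0.03. The spots of the 2 h and 5 h arrays lay far apart, and the fed level at 24 h was 1.31-fold higher than in untreated plants. With loess in each print block its 24 h value was no longer the highest.

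AT3G28940 encodes a protein related to AIG2, a protein induced by bacteria that carry an avirulence gene. It stood at 0.10, 0.64, -0.22 and 1.43, with spot SDs of 0.04, 0.46, 0.04 and 0.42. The 5 h and 24 h arrays were above the 2 h and 10 h arrays, and the 24 h level was 2.69-fold higher than in untreated plants. With loess in each print block the 24 h ratio of AT3G28940 was 0.51, under the 2-fold count. This clone had 50% of its pixels saturated in Cy5 in 1 spot at 5 h and 50.8% at 24 h, so its Cy5 signal is a lower limit in those spots.

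AT1G23130 encodes a protein of the polyketide cyclase, dehydrase and lipid transport superfamily. Its ratios were -0.72, -0.86, -1.00 and 0.14, with spot SDs of 0.01, 0.05, 0.18 and 0.14. As for PPDK, the earlier arrays were low and the 24 h array was within its spot SD of the middle clone. Probes of this array are long cDNA clones, so close relatives, such as other class III peroxidases for AT4G37520, may share signal.

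The 6 unnamed clones that were counted as 2-fold higher at 24 h differed in what came before. RAFL09-07-G15 had the highest ratios of the set from 5 h on, with 0.56 at 2 h, 2.28 at 5 h, 2.46 at 10 h and 3.46 at 24 h. It was counted as higher from 5 h on and reached an 11.0-fold higher level at 24 h, with up to 11.3% of its Cy5 pixels saturated. RAFL11-11-M23 stood at -0.99, 1.15, 0.13 and 1.78, so its 5 h array was also counted as higher.

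RAFL04-16-I15 was counted as lower at 2 h and higher at 24 h, with ratios of -1.56, -0.53, -0.34 and 1.08 and spot SDs of 0.08, 0.06, 0.10 and 0.08. RAFL06-09-N04 was near the middle clone until 10 h and at 1.12 at 24 h, after -0.03, -0.20 and -0.04. With loess in each print block its margin of 1.15 became 0.07 and its 24 h ratio 0.06, under the 2-fold count.

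RAFL05-02-F07 was above the middle clone on all 4 arrays, and RAFL04-09-O24 on all but the 10 h array. RAFL05-02-F07 stood at 0.97, 0.38, 0.86 and 1.85. Before normalization its net Cy3 signal was lowest at 24 h, with 522 against 775 to 1078 earlier. With both dyes put on a common scale across arrays, its Cy3 level was 10.30, 9.55, 10.28 and 9.58 log2 units, lowest at 5 h. RAFL04-09-O24 stood at 0.92, 0.77, -0.07 and 1.83. Taking all 10 clones that were 2-fold higher at 24 h, 7 had not been counted at any earlier time, 2 had been counted higher before and 1 lower. No such split is given for all clones.

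The 13 clones that were 2-fold lower before 24 h and within 2-fold at 24 h include PPDK and AT5G61590. Their medians were -1.28, -1.46, -1.31 and 0.16 at 2, 5, 10 and 24 h, and their 24 h ratios ran from -0.46 to 0.49. In this group 5 clones were counted as lower at all 3 earlier times: RAFL07-07-I03, RAFL09-14-B02, RAFL06-07-B19, RAFL06-77-N24 and RAFL09-89-H05. How many of all clones were lower at these 3 times together is not given.

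RAFL07-07-I03 had the largest margin of the set. It stood at -1.56, -2.09, -3.45 and 0.19, with spot SDs of 0.19, 0.00, 0.43 and 0.13. Its fed signal was not above background at 10 h and lay at least 7.77-fold below the untreated signal. At 24 h fed plants were 1.14-fold higher, with net signals of 1446 in Cy5 and 1036 in Cy3 before normalization.

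RAFL09-14-B02 followed the same order of arrays, with -1.88, -2.01, -3.40 and -0.46. Its fed signal at 10 h was also not above background and was at least 5.47-fold lower. At 24 h it was the lowest of the 34.

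RAFL06-07-B19 stood at -1.69, -1.46, -1.31 and -0.06, and RAFL08-08-A05 at -1.03, -1.00, -0.50 and 0.49. RAFL06-77-N24 stood at -1.37, -1.60, -2.26 and -0.14, and RAFL09-89-H05 at -1.42, -1.86, -2.28 and -0.23. These 4 clones reached the middle clone or stayed slightly below it at 24 h, apart from RAFL08-08-A05, which was 1.41-fold higher than in untreated plants.

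The 11 clones within 2-fold at each time include AT1G23130, CYP71B6, AT1G60730, AT2G46600, AT3G55430 and GT72B1. Their medians were -0.43, -0.26, -0.17 and 0.51. Of the 34 clones, 11 were lowest on the 2 h array, 9 on the 5 h array and 14 on the 10 h array. The selection kept the 24 h array from being the lowest. The same count over all clones is not given, so nothing is read from these numbers.

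The size of the step to 24 h can be set against the spot error. The 24 h ratio exceeded the next highest by a median of 0.88 and by 0.31 to 1.75 over the 34 clones, and 31 of 34 kept a margin of at least 0.5. Against the 10 h array on the same slide, the 24 h ratio was higher by a median of 1.15. The difference ran from 0.31 to 2.12, the latter in RAFL06-77-N24, leaving out RAFL07-07-I03 and RAFL09-14-B02, whose fed signal at 10 h was not above background. In all 34 clones each 24 h spot was above each spot of the other times, against 17.3% of all clones with 4 values. Usable duplicate spots on each array were present for 33 clones, and RAFL06-09-O18 had 1 spot at 2 h and 10 h. The same arrays selected the clones by their margin over the other times, so this separation follows largely from the selection. It covers spot error on 1 array per time, and the spread between plants or hybridisations was not measured.

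In the authors' value table, used for the selection, the margins ran from 0.54 to 1.78 with a median of 0.76. Just inside the threshold of 0.5 were GT72B1 and AT3G55430, each with a margin of 0.54, and RAFL06-12-A07 with 0.55. Just outside were AT3G51000 with 0.49, RAFL08-12-P11 with 0.48 and the serine carboxypeptidase-like gene scpl48 with 0.44.

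A ratio can be high at 24 h through the fed or the untreated signal. With both dyes put on a common scale across arrays, the Cy5 level of the members at 24 h was above its mean over 2, 5 and 10 h by a median of 1.42 log2 units, between -0.08 and 2.60, and it was higher in 33 of 34. The Cy3 level differed by a median of 0.11, between -1.00 and 1.04, with 22 clones higher and 12 lower. Over all 607 clones with 4 values the medians were -0.11 in Cy5 and -0.04 in Cy3. Of these clones, 277 were higher in Cy5 at 24 h, and in Cy3 278 were higher and 329 lower. The members were selected on the ratio of both dyes, so their counts follow in part from the selection and are a description.

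The Cy5 difference was the larger of both in 30 of the 34 clones, against 425 of 607 clones. The exceptions were RAFL08-12-D11 with -0.08 in Cy5 and -1.00 in Cy3, FDH with 0.68 and -0.77, PPDK with 0.67 and -0.82, and RAFL09-89-H05 with 0.66 and -0.96. In FDH, PPDK and RAFL09-89-H05, the untreated signal was lower at 24 h by more than the fed signal was higher, and in RAFL08-12-D11 the fed signal was not higher. Against the 5 h array, the other array at the same end of a slide, the members' Cy5 level at 24 h was higher by a median of 1.04 and higher in 33 of 34, and the Cy3 level differed by -0.07 with 19 of 34 lower. Over all clones with 4 values, 277 of 607 were higher in Cy5 and 293 of 607 lower in Cy3 than at 5 h.

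**Figure D3:**
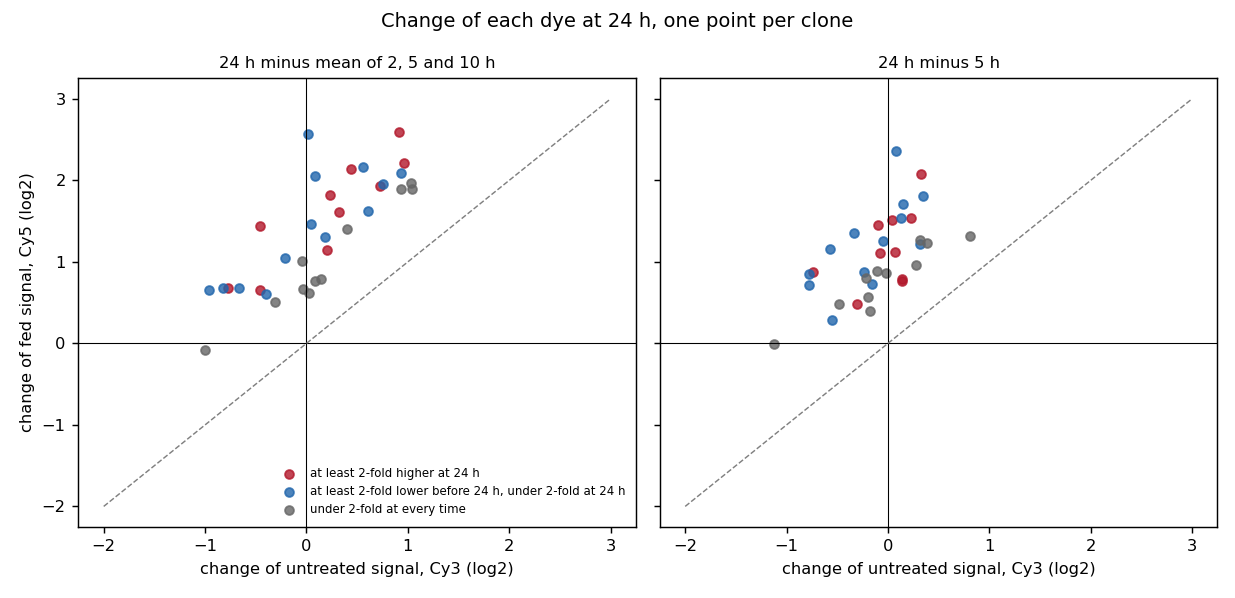
Change of the fed signal (Cy5, vertical axis, log2) against the change of the untreated signal (Cy3, horizontal axis, log2) at 24 h for each of the 34 clones, relative to the mean of 2, 5 and 10 h (left) and to 5 h alone (right); the dashed line marks equal change. The points lie above the line, which follows from the selection for a high 24 h ratio. The median Cy5 changes were 1.42 and 1.04 and the median Cy3 changes 0.11 and -0.07.

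The members were unevenly placed on the array, and both spots of each clone lay in the same print block. Of the 12 print blocks, row 1, column 4 held 10 of the 34 and row 1, column 2 held 6. These blocks had 65 and 48 of the 607 clones with 4 values, so that 47.1% of the members and 18.6% of the clones came from both blocks together. The median ratio over all clones of the block at column 4 was 0.10, 0.42, -0.04 and 0.57 at 2, 5, 10 and 24 h, and that of the block at column 2 was -0.45, -0.73, -0.63 and -0.28, both highest at 24 h. The blocks at row 1, column 3 and row 4, column 2, with 2 and 1 members, also had their highest median at 24 h. The block at row 3, column 2, with 5 members, did not.

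When loess was fitted in each print block, 28 of the 34 clones remained highest at 24 h. The 6 that did not were CYP71B6, AT2G46600, AT5G61590, AT3G55430, RAFL06-09-O18 and RAFL06-12-A07, and all lay in the blocks at row 1, columns 2 and 4. The median margin of the 16 clones in these blocks was 0.86 with loess over the whole array and 0.42 with loess in each block, and that of the 18 others was 0.89 and 0.77. A margin of at least 0.5 was kept by 20 of 34 clones, 13 of them outside these blocks. The counts of 28 and 20 are not given over all clones in this setting, and the same arrays had selected the members. SFP1, FDH, PPDK, AT4G37520, AT1G60730, AT3G28940, GT72B1 and AT1G23130 remained highest at 24 h, with margins of 0.72, 1.19, 1.15, 1.26, 0.79, 0.94, 0.43 and 0.28. Whether position on the slide or the choice of genes in a block set this pattern was not tested.

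**Figure D4:**
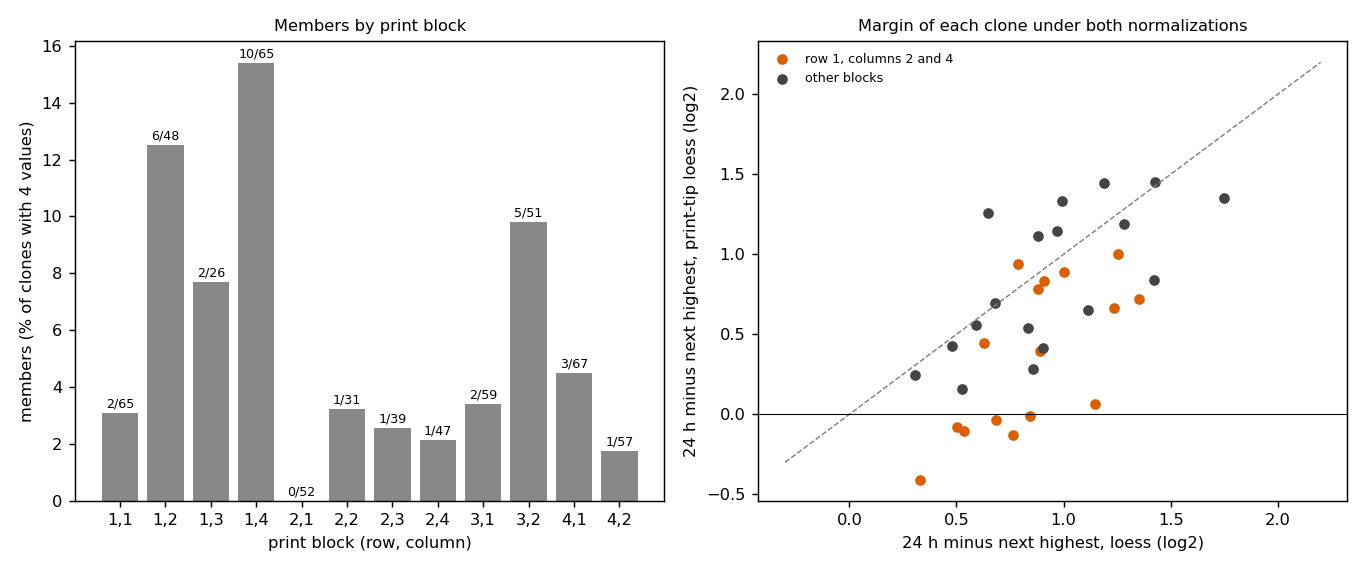
Left, members as a percent of the clones with 4 values in each of the 12 print blocks (row, column), with the counts above the bars; right, for each of the 34 clones, the 24 h ratio minus the next highest (log2) with loess in each print block against loess over the whole array, with the dashed line at equality. The blocks at row 1, columns 2 and 4 hold 6 of 48 and 10 of 65 clones, and the 6 clones below 0 on the right belong to them.

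The untreated signal was brighter on both the 5 h and the 24 h array than on the 2 h and 10 h arrays in 15 of 34 members, in 10 of the 16 members of these blocks, and in 185 of all 607 clones. The 5 h and 24 h arrays sat at the same end of their slides, and the part of this in the 24 h ratios was not tested.

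Of the genes that the selection rule excludes by name, 3 stood far above the middle clone at 24 h and are described for contrast. THI2.1, a thionin of the jasmonate response, was at -0.90, -0.02, -0.54 and 2.55. PDF1.2, a plant defensin induced by jasmonate with ethylene, had no 2 h value and stood at -0.31, -0.58 and 2.82 at 5, 10 and 24 h. PYK10, a beta-glucosidase of ER bodies that is abundant in roots, was at -0.27, 0.41, 1.50 and 2.86. At 24 h, each of these 3 was above 33 of the 34 members, the exception being RAFL09-07-G15. AT2G37130, also excluded by name, stood at -1.09, 0.84, 0.67 and 1.14, highest at 24 h. Its margin of 0.44 was under the threshold of 0.5.

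Few genes of the lists for hormone, defence, stress and metabolic pathways could be followed by name here. The jasmonate synthesis, ethylene, starch and phenylpropanoid lists had 1 named clone each, the defence peptide and redox lists 2 each and the abscisic acid, drought and cold list 5. Of these, THI2.1, AER and APL3 were highest at 24 h. THI2.1 and APL3 are left out of the set by name, as is the root marker PYK10. AER, with a margin of 0.45, was under the threshold of 0.5. The 0 listed genes among the members thus follow in part from the genes left out by name. AER, an alkenal reductase, stood at 0.12, 0.94, 0.94 and 1.41, and APL3, a subunit of the starch synthesis enzyme ADP-glucose pyrophosphorylase, at -1.36, -1.46, -1.40 and -0.56. The listed genes with 4 values that were not highest at 24 h were OPCL1, EIN3, KIN2, COR47, ALDH7B4 and CCR2. Among these, the aldehyde dehydrogenase gene ALDH7B4 came closest, with 0.63, 1.46, 2.01 and 1.96, while the cold-inducible KIN2 was highest at 10 h, with 1.74, 1.77, 3.47 and 0.48. PDF1.2, KIN1, COR15A and COR15B lacked a value at 1 or more times. Outside the cDNA clones, ETR1 of the ethylene list and RD29A of the abscisic acid, drought and cold list had 2 usable spots on each array. Their ratios are not given here. Spots of EIN2, RD29B and DREB1A were also printed, with 0 usable.

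The jasmonate- and wound-responsive, senescence, heat shock and photosynthesis lists and the leaf and seed marker lists had 0 named clones here, so the leaf label could not be checked with them. Of the root markers, 1 was measured, PYK10, with the values above, and its part in the members' ratios was not tested.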

How the data were processed

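The deposited scanner files, 1 per array, give foreground and background intensity of 2560 spots in Cy3 and Cy5 on a linear scale, with the percent of saturated pixels, per the file headers. Slides were read on a ScanArray Lite and the spot intensity is the median over pixels, per the labels. The deposited value table holds natural log values. The sources used here do not state its scale, centring or direction. Against the scanner's log ratio of Cy5 over Cy3, its columns had slopes of 0.988, 0.982, 0.972 and 0.962 at 2, 5, 10 and 24 h. The deposited values were therefore taken as natural logs of the Cy5 to Cy3 ratio, with column medians of 0.305, 1.20, 0.609 and 0.867 and 8 values at a floor at 10 h. For the selection they were converted to log2 and centred on the column median.

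Scanner ratios were computed in R 4.3.3 with limma 3.58.1 (normexp with an offset of 50, loess within each array with control spots at weight 0, spots of a clone averaged). Dye levels used Aquantile between arrays in addition. The scanner's flag 3 was taken as usable because spots with other flags were dimmer, with median net signals of 62 in Cy3 and 68 in Cy5 against 913 and 1318. Above background means a foreground over the background by 2 background SD. A bound is the fold to the lowest signal among spots above background or the clone's own signal, whichever is higher.

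The platform's table gave gene names, updated by identifier to TAIR10.1 names (415 of the 1182 clones). The rule names every member with a gene name and, of those without, the 5 with the largest margin, with the 3 clones nearest the threshold on each side. The other clones were named after their values were seen. The set and all lists were chosen with earlier results of these data known. With 1 array per time, no time point has a replicate, no p-value is given, and the number of arrays limits the precision. The planned search for promoter motifs and the clone sequences are not analysed here. The ratio script was tested on simulated data.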

Additional observations from a re-analysis of the deposited data

Results flagged for a closer look

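RAFL04-16-I15 had a log2 ratio of -1.56 at 2 h and of 1.08 at 24 h, with both spots on the same side at each time, so that fed plants were below untreated plants at one time and above them at the other. The difference was not tested, because each time has 1 array, and the clone was selected for a high 24 h value. With 1 array per time, no group was large enough to look for a sample far from the others.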

How the results depend on the processing

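No paired analysis was possible because there is 1 array per time. A margin of 1 in place of 0.5 left 10 of the 34 clones. Without centring, 32 clones passed, of which 16 are members. Selected on scanner ratios, 36 passed, 31 of them members. The zero point moved the level, with 24 h still the highest in all 34: with the lambda DNA spots at 0, the members' median at 24 h was 1.54 and 31 were at least 2-fold higher, and with the alpha tubulin spots at 0, it was 2.13 and 34, against 0.48 and 10 relative to the middle clone. The median clone itself lay at 1.14 and 1.73 there. In the other settings tried (background correction, median centring, pixel mean, print-block loess, both dyes above background, every flag kept) the median was between 0.39 and 0.51, and 7 to 11 clones were 2-fold higher. All members with 4 values were highest at 24 h except under print-block loess, with 28 of 34. Over all settings, the 24 h ratios of the 12 named genes moved by more than their spot SD in 51 of 108 comparisons. These include all 12 genes under both the lambda DNA and the alpha tubulin zero, which change the zero point of the whole array. Keeping spots by the meaning of their flags was not run, since the sources used here do not state that meaning, and every flag was kept instead, a choice made after seeing the data, as was the comparison of dye levels with 5 h alone.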
